A study of Mus musculus with 21 samples.

Results

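The 30 genes described here make cholesterol, sense it, esterify it and move it out of the cell. They comprise 18 enzymes of the synthesis pathway, 4 sterol-sensing genes, 3 genes of intracellular transport and esterification, 3 genes of efflux and exchange with lipoproteins, and Nr1h3 with Mylip. The members were taken by symbol from a list that sets no threshold on measured values, though the list was drawn up with earlier results of these data known. All 30 were found among the 52636 gene IDs of the count table, and 30 of 30 passed the filter on low counts that left 17104 genes for testing.

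The livers of 21 wild-type mice were sequenced in 3 groups. The chow group held 5 livers from mice kept on normal chow for 8 weeks, a point labelled week 0. The other groups held 8 livers each, from mice fed CDA-HFD for 8 or for 16 weeks. CDA-HFD is a choline-deficient, high-fat diet with defined amino acids, under which mouse livers become fatty, inflamed and fibrotic. The labels state no sex, age or batch, and no strain beyond wild type. No chow group accompanied the 16-week livers, so the effect of age and that of longer feeding cannot be told apart there. That the chow and 8-week livers match in time rests on the series' design text, since the sample labels say week 0 for chow. The labels give each library its own number but do not say outright that each is 1 animal. Replicate numbers used here only count the libraries within each group, so equal numbers in different groups are no pair. The p-values thus set group differences against the spread between libraries, estimated in 1 fit over the 3 groups.

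Cells build cholesterol from acetyl-CoA through mevalonate, farnesyl diphosphate, squalene and lanosterol. The transcription factor SREBP-2, encoded by Srebf2, drives the genes of this pathway. SCAP escorts it to the Golgi for cleavage when sterols are scarce, and the INSIG proteins hold SCAP back in the endoplasmic reticulum when sterols are plentiful. Nuclear SREBP-2 binds a sterol response element, usually beside sites for the factors NF-Y and Sp1. Excess cholesterol is esterified by SOAT1 and SOAT2 or exported by ABCA1, and oxysterols activate the LXR receptors, which raise the genes of export.

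Promoter windows from RefSeq (build GRCm38.p6, 250 bases before to 50 after the start) matched 24 of the 30 members. Fdps, Fdft1, Sqle, Stard4, Soat2 and Scarb1 were not matched. The windows were searched on both strands for the NF-Y box CCAAT, the Sp1 box GGGCGG, the sterol response element core TCACNCCAC and a looser core CACNCCAC, which every match of the stricter one also holds. The NF-Y box lay in 14 of the 15 synthesis enzymes with a window, all but Acat2, and in 20 of the 24 members. Among 17492 protein-coding genes, 42.3% held it, and 37.4% of all 32851 windows did. The Sp1 box lay in 14 of the 15 enzymes and 21 of the 24 members, against 49.2% of protein-coding genes and 35.7% of windows. The strict core was found in Hmgcs1 alone, and in 1.41% of protein-coding genes and 1.24% of windows. The looser core was found in Acat2, Hmgcs1 and Insig1, and in 7.26% of protein-coding genes and 6.24% of windows. A match is a run of letters and no evidence of binding.

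The 250 bases before the RefSeq start are shown for 5 members on which the results turn. Hmgcs1, Mvk and Mvd rose after 8 weeks of the diet, and Insig1 fell at both times (at 8 weeks not under every alternative setting). Tm7sf2 had the lowest fitted difference of the 30 after 16 weeks with all libraries, nearly level with Abca1. Capitals mark the sterol response element core in Hmgcs1, the looser core in Insig1, and every NF-Y box. Gene coordinates given below follow another annotation, GENCODE, whose starts differ for some members. By those coordinates, part of the Insig1 stretch, with its looser core, and all of the Tm7sf2 stretch lie inside the gene. The windows are chr13:119690101-119690350, plus strand, for Hmgcs1, chr5:114444019-114444268, plus strand, for Mvk, chr8:122443423-122443672, minus strand, for Mvd, chr5:28071162-28071411, plus strand, for Insig1, and chr19:6067851-6068100, minus strand, for Tm7sf2.
Hmgcs1: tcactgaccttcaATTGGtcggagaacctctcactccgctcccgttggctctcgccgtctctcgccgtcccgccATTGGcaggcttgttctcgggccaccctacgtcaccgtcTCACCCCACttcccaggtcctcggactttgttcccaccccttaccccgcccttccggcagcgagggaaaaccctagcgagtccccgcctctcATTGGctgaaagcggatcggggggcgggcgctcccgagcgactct
Mvk: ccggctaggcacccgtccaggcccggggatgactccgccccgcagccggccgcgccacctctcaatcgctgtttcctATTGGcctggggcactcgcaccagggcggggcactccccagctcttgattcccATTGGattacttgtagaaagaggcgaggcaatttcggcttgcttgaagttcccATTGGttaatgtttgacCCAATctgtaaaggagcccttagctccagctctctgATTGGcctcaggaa
Mvd: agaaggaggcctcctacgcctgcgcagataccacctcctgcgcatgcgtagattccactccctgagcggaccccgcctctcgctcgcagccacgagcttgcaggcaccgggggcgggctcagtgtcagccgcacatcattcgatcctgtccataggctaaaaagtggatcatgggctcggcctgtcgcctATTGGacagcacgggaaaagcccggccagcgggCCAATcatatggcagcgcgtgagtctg
Insig1: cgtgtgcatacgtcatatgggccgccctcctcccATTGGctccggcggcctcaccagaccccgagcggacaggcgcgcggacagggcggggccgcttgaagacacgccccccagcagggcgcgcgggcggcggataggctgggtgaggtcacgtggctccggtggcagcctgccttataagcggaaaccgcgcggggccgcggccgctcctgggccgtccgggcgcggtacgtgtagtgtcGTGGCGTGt
Tm7sf2: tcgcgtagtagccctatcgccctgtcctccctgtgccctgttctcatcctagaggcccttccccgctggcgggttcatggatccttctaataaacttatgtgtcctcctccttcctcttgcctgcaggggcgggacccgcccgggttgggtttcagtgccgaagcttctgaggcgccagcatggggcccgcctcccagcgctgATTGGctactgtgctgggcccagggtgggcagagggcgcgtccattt
The looser core inside the marked core of Hmgcs1 began 136 bases before the start on the gene's own strand, and that of Insig1 began 9 bases before it on the other strand. The printed stretch of Mvk held 5 NF-Y boxes, that of Hmgcs1 held 3, that of Mvd held 2, and those of Insig1 and Tm7sf2 held 1 each. Genes that rose and genes that fell thus both carried the box.

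The chow libraries held 33522456 to 42586342 counts each, those of 8 weeks 29037525 to 45868842, and those of 16 weeks 35254088 to 48901145. Levels are given as CPM, with the library size adjusted by TMM, a factor that evens out differences in composition. The 7 hepatocyte markers examined, among them Alb and Hnf4a, summed to between 79410 and 385000 CPM over the 21 libraries, and none of them was at 0 in a whole group. At 8 weeks, replicate 3 differed from its group. It held 1777 CPM of squamous epithelium markers and 3066 CPM of skeletal muscle markers, where the group medians were 14.6 and 11.3 CPM. Its hepatocyte sum of 385000 CPM and its macrophage sum of 7322 CPM were the highest of all libraries, and its TMM factor of 0.496 was the lowest. Smaller squamous and muscle sums occurred in 8-week replicate 6 (289.9 and 345.3 CPM). The same held for 16-week replicates 1 (257.4 and 411.6), 4 (80.68 and 400) and 7 (157.4 and 235.4). With 8-week replicate 3 these are the 5 libraries with most squamous transcripts. Chow replicate 5 held 401.4 CPM of muscle markers. Where the absence of 8-week replicate 3 changed a member's call against chow, a value without it is given too. Other sizes and calls without it are given for some members only, and the plot of differences shows both fits for each member.

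This library stood apart from its group at most of the sterol genes. It lay above the other 7 libraries of its group at 10 members, by 1.22 to 10.1 times their median, below them at 16 members, at 0.0738 to 0.615 times their median, and within their range at Cyp51, Soat1, Scarb1 and Lcat. The principal transcripts of the 10 members had a median length of 1749.5 bases, and those of the 16 a median of 3264.5 bases. Fdps, Mvk and Mvd were the members furthest above, and Insig2, Stard4 and Mylip those furthest below. Among the cell markers, Apoa1 also lay above the other 7 libraries and Cdh5 below them, while Hnf4a lay within their range. The share of all genes at which this library lay outside the others was not determined, so these counts are description only. Whether transcript length, the tissue of origin or RNA quality sets this division was not tested.

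**Figure D1:**
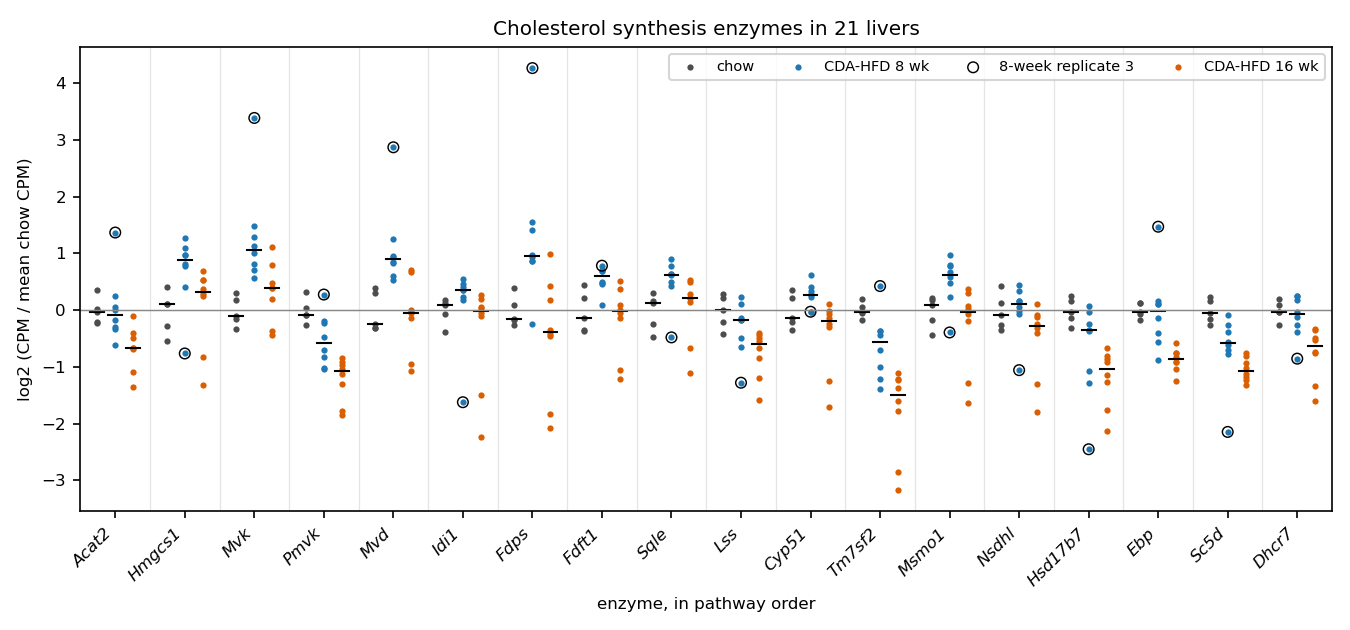
Level of each of the 18 synthesis enzymes in each of the 21 libraries, as log2 of CPM over the mean chow CPM, in pathway order. Points are libraries, bars are group medians and circled points are 8-week replicate 3, which read 42.8 CPM of Fdps where the other 7 libraries read 1.88 to 6.51.

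After 8 weeks of CDA-HFD, Hmgcs1, Mvk, Mvd and Fdps of the mevalonate end of the synthesis pathway were higher than on chow, and the 1 late enzyme that was called, Sc5d, was lower. In edgeR's quasi-likelihood test, 7 of the 30 members were called higher and 5 lower at an adjusted p under 0.05, where 30.8% of all 17104 genes were called higher and 20.5% lower. The median log2 difference was 0.16 for the members and 0.16 for all genes. Without 8-week replicate 3, 10 members were higher and 8 lower, where 31.5% of 17033 genes were higher and 25.8% lower. With all libraries the members were thus called no more often than genes at large in either direction. With replicates 2 and 8 of the 16-week group, which share the fit, left out as well, 13 members were higher and 8 lower, where 32.4% and 25.3% of genes were.

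The 7 enzymes from acetyl-CoA to farnesyl diphosphate held 4 of the called rises and no called fall, with a median of 0.79. Of all genes, 30.8% were called higher and 20.5% lower. Mvk, the mevalonate kinase (chr5:114444269-114460591), read 24.5, 32.5, 20.7, 29.6 and 23.6 CPM in the chow livers. After 8 weeks it had a lowest value of 38.6, a median of 55.0 and a highest value of 274 CPM, the last in replicate 3. Each of the 8 libraries lay above all chow libraries. Here and below, the share of all genes whose groups do not overlap was not determined, so a lack of overlap is description only. The log2 difference was 1.63 ± 0.42 (SE, edgeR adjusted p = 0.00329), and 1.02 ± 0.23 (adjusted p = 0.000833) without replicate 3.

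Mvd, the decarboxylase that yields isopentenyl diphosphate (chr8:122433601-122443422), stood at 17.9, 29.2, 17.9, 27.3 and 18.8 CPM on chow. Its 8-week values had a lowest of 32.2, a median of 41.5 and a highest of 163 CPM, again with no overlap with chow. The log2 difference was 1.33 ± 0.39 (edgeR adjusted p = 0.0076), or 0.86 ± 0.26 (adjusted p = 0.00798) without replicate 3. Hmgcs1, which condenses acetyl-CoA units to HMG-CoA, rose by 0.79 ± 0.32 (adjusted p = 0.0433), and by 0.91 ± 0.27 (adjusted p = 0.0074) without replicate 3, where it was lowest of the group. Its call with all libraries was lost in 13 of 31 alternative settings, with adjusted p from 0.0074 to 0.109. With or without replicate 3, 6 of the 8-week libraries exceeded every chow library at Hmgcs1.

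Fdps, the farnesyl diphosphate synthase (chr3:89093588-89101959), was counted at very low levels. The chow livers read 1.99, 2.93, 1.86, 1.97 and 2.38 CPM, and the 8-week livers had a lowest of 1.88, a median of 4.29 and a highest of 42.8 CPM. The groups overlapped in 1 library, 8-week replicate 6. A log2 difference of 2.03 ± 0.67 (edgeR adjusted p = 0.0159) became 0.98 ± 0.40 (adjusted p = 0.0435) without replicate 3. The gene shares 1124 exonic bases, 26.7% of its exons, with Gm43738 on the same strand, which had 0 counts in every library, so that its level is uncertain. Of the remaining enzymes of this stretch, Acat2, Pmvk and Idi1 were not called. Without replicate 3, Pmvk, the phosphomevalonate kinase, was called lower at -0.61 ± 0.18 (adjusted p = 0.00786).

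The 3 enzymes from squalene to lanosterol gave no call. Their differences were 0.56 for Fdft1, 0.55 for Sqle and -0.26 for Lss, with edgeR adjusted p from 0.0544 to 0.334. Without replicate 3, Sqle, the squalene epoxidase, was called higher at 0.63 ± 0.22 (adjusted p = 0.0164). Fdft1 shares exonic bases with Ctsb on the opposite strand, and the strand setting of the counting is not given in the sources used here.

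From lanosterol to cholesterol, 1 of 8 enzymes was called after 8 weeks, and it was lower, where 20.5% of all genes were called lower. The differences of 4 of the 8 were positive and those of 4 negative, with a median of -0.01. Sc5d, the sterol C5-desaturase (chr9:42251595-42264256), read 742, 782, 598, 643 and 554 CPM on chow. After 8 weeks the lowest value was 150, the median 443 and the highest 628 CPM, and 6 of 8 libraries lay below all chow libraries. The log2 difference was -0.59 ± 0.21 (edgeR adjusted p = 0.0257) and -0.47 ± 0.13 (adjusted p = 0.00351) without replicate 3. The call with all libraries was lost in 4 of 31 alternatives, namely total counts alone, no filter, and leaving out chow replicate 1 or chow replicate 2, with adjusted p up to 0.224. Without 8-week replicate 3, Msmo1, a sterol C4-methyl oxidase, was also called higher at 0.65 ± 0.26 (adjusted p = 0.041), and Tm7sf2, a sterol C14-reductase, lower at -0.74 ± 0.28 (adjusted p = 0.0307). Synthesis enzymes called higher and called lower thus occurred in the same livers.

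After 16 weeks 8 of the 18 synthesis enzymes were called lower than on chow and 0 higher, with TMM scaling, while scaling by total counts alone called 2 lower, Pmvk and Tm7sf2, and 1 higher, Mvk. Among all 30 members 2 were called higher and 13 lower, where 29.4% of all genes were called higher and 22.5% lower. The members' median log2 difference was -0.37 against 0.03 for all genes. With scaling by total counts alone the members' median turned to 0.14, but the median of all genes moved to 0.56, so that the members still lay 0.42 below it. Without 8-week replicate 3, which shares the fit, 4 members were higher and 15 lower, where 34.9% and 31.4% of genes were. By the unadjusted p as well, at under 0.05, 0 of the 18 enzymes were higher, and DESeq2 called 0.

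With all libraries, the lowest log2 difference of a member at 16 weeks was that of Tm7sf2 (chr19:6062821-6068373). It stood at 144, 187, 159, 170 and 157 CPM on chow, and had a lowest of 18.2, a median of 58.6 and a highest of 76.1 CPM after 16 weeks. These groups did not overlap. The 8-week livers had a lowest of 62.4, a median of 111 and a highest of 220 CPM, with 7 libraries below all of chow and replicate 3 above all of it. The log2 difference at 16 weeks was -1.63 ± 0.31, or 3.10-fold lower (edgeR adjusted p = 0.000146). Abca1 was nearly level at -1.61. Without 16-week replicates 2 and 8, the lowest enzyme was at -1.36 and Abca1 at -1.65. Tm7sf2 shares 12.1% of its exonic bases with Vps51 on the same strand.

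The other falls among late enzymes were Hsd17b7 at -1.12 ± 0.30, Sc5d at -1.03 ± 0.21, Ebp at -0.86 ± 0.26 and Dhcr7 at -0.71 ± 0.20, with edgeR adjusted p from 0.000331 to 0.00931. These encode a 3-ketosteroid reductase, the C5-desaturase, a sterol isomerase and the reductase of the last step in one branch. None of the 4 overlapped with chow. At Sc5d the 16-week livers had a lowest of 266, a median of 316 and a highest of 392 CPM. Lss, the lanosterol synthase, fell by 0.72 (SE 0.22, adjusted p = 0.00845) and Pmvk by 1.18 (SE 0.21, adjusted p = 7.05e-05), the latter without overlap. Acat2, a cytosolic thiolase, was called at -0.64 ± 0.26 (adjusted p = 0.0455), a call lost in 17 of 31 alternative settings.

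The 3 early enzymes with the largest rise after 8 weeks, Mvk, Mvd and Fdps, were not called against chow after 16. Mvk had a lowest of 19.4, a median of 34.5 and a highest of 56.7 CPM after 16 weeks, at 0.41 ± 0.40 against chow (edgeR adjusted p = 0.422). Mvd had 10.5, 21.5 and 36.5 CPM, at 0.02 ± 0.37 (adjusted p = 0.976). Fdps had 0.526, 1.71 and 4.44 CPM, at -0.15 ± 0.62 (adjusted p = 0.864). At each of these genes some 16-week libraries lay above all chow libraries and others below them all. The remaining enzymes without a call, Hmgcs1, Idi1, Fdft1, Sqle, Cyp51, Msmo1 and Nsdhl, lay between -0.41 and 0.20.

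**Figure D2:**
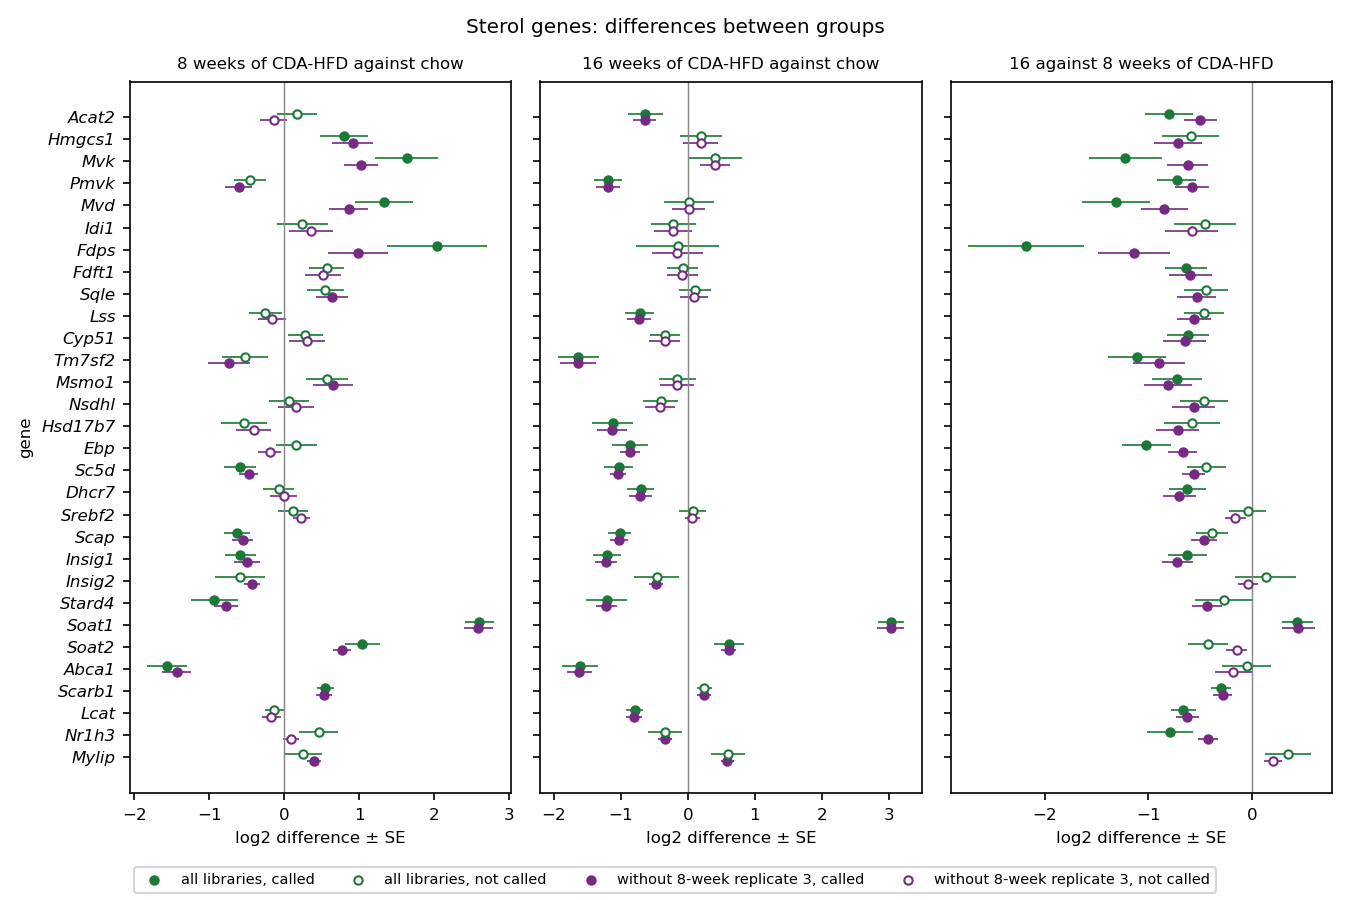
Log2 difference ± SE of the 30 genes in each comparison, from the fit of all 21 libraries (green) and without 8-week replicate 3 (purple); filled points are called by edgeR at an adjusted p under 0.05. After 16 weeks 8 of the 18 synthesis enzymes are called lower and 0 higher with TMM scaling (2 lower and 1 higher with total counts alone), and in the comparison of both times the 18 enzymes all lie below 0, also with scaling by total counts alone.

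The comparison of 16 with 8 weeks of the diet tested the change over time directly and used no chow library as a reference. All 18 synthesis enzymes had a negative log2 difference, from -0.44 to -2.18, and 11 were called lower and 0 higher, with 0 higher at an unadjusted p under 0.05 and 0 by DESeq2. With scaling by total counts alone, 18 of 18 were still negative and 4 were called lower, Mvd, Fdps, Tm7sf2 and Ebp. Among the 30 members 15 were called lower and 1 higher, where 11.0% of all genes were called lower and 10.6% higher. The members' median was -0.59 and that of all genes 0.00. With 8-week replicate 3 left out, 23 members were lower and 1 higher, where 12.5% and 14.8% of genes were. The enzymes called lower then numbered 17 of 18, all but Idi1.

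With all libraries, the largest differences between the times were those of Fdps at -2.18 ± 0.56, Mvd at -1.31 ± 0.33 and Mvk at -1.22 ± 0.35, with edgeR adjusted p = 0.0104, 0.0088 and 0.0192. Without 8-week replicate 3 they were -1.14 ± 0.35, -0.85 ± 0.22 and -0.62 ± 0.20, each still called. The order then changed, with Tm7sf2 at -0.90 ± 0.25 before Mvd, and Mvk close to the median of the 18 enzymes, -0.63. At each of Mvd and Mvk, 6 of the 8 16-week libraries lay below every 8-week library, and at Fdps 5 did. Ebp at -1.02 ± 0.24 and Tm7sf2 at -1.11 ± 0.28 followed (adjusted p = 0.00556 and 0.00936). Fdft1, Cyp51 and Msmo1, between -0.62 and -0.72, each lost their call in 12 to 14 of 32 alternative settings.

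Within each group, some livers were low or high at most of the 18 synthesis enzymes. Replicate 2 of the 16-week group was the lowest of its 8 libraries at 16 of the 18 enzymes, with a median of 0.454 times the group median, and replicate 8 was among the lowest 2 at 18 of 18, with a median of 0.541. Replicate 2 of the chow group was the highest of 5 at 16 of 18, with a median of 1.22 times its group median. In the 8-week group, replicate 1 was highest at 9 enzymes and replicate 6 lowest at 9, while replicate 3 was highest at 8 and lowest at 9. Each pair of enzymes shares its library, depth and liver, so these counts describe single livers and not a relation between genes. No such count was made over all genes, so a trait of the enzymes alone is not shown.

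The difference between the times was smaller without the 2 low libraries of the 16-week group, which were chosen after their values were seen. Without them 3 of the 18 enzymes were called lower at 16 than at 8 weeks and 0 higher, where 2.57% of genes were lower and 5.58% higher. With 8-week replicate 3 left out too, 10 were lower and 0 higher, where 7.44% of genes were lower and 9.99% higher. In both fits 0 were higher at an unadjusted p under 0.05. All 18 enzymes kept a negative difference in both fits, with medians of -0.42 and -0.45. Against chow, 7 of 18 were called lower and 0 higher without the 2 libraries, again with 0 higher at an unadjusted p under 0.05, where 19.3% of genes were lower and 27.2% higher. Without all 3 libraries, 8 were lower than chow and 3 were higher, namely Hmgcs1, Mvk and Sqle, where 29.5% of genes were lower and 33.8% higher. The same 2 libraries read the highest Soat1 of the group, 59.0 and 73.7 CPM. Replicate 8 had the group's highest macrophage marker sum, 4799 CPM, and replicate 2 the highest cholangiocyte and fat marker sums, 123.9 and 144.2 CPM. Their part in the low enzyme levels was not tested.

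**Figure D3:**
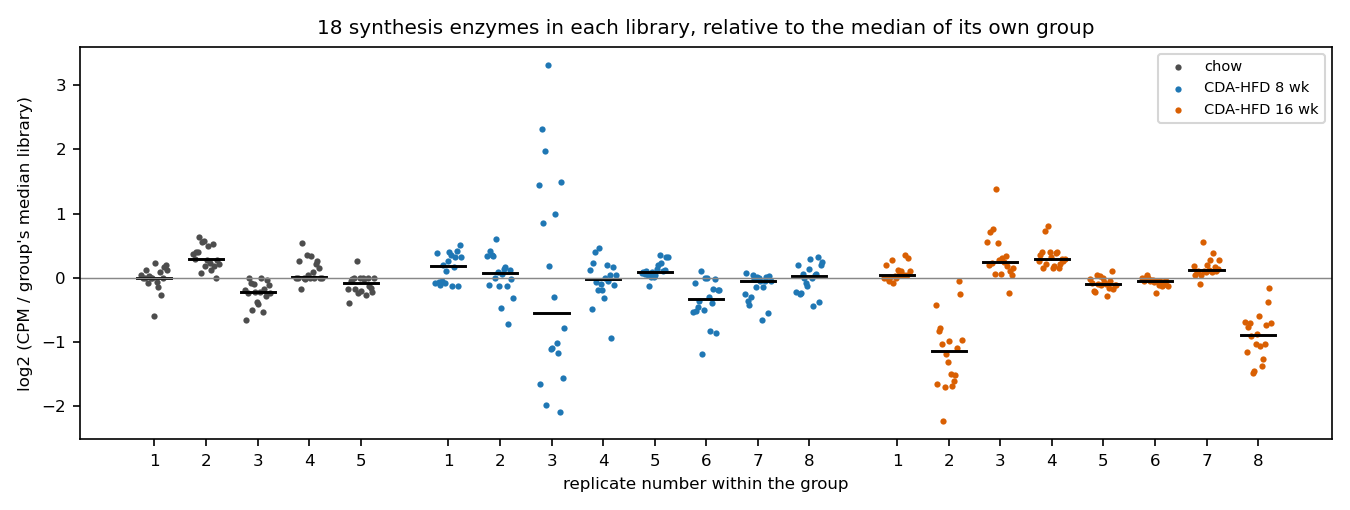
Each point is 1 of the 18 synthesis enzymes in 1 library, as log2 of its CPM over the median library of the same group, with the median of the 18 as a bar. Replicates 2 and 8 of the 16-week group lie at median ratios of 0.454 and 0.541, and 8-week replicate 3 spreads from 0.234 to 9.98.

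In sterol sensing, the transcript of SREBP-2 itself was not called in any comparison, while those of its escort SCAP and of the retention protein INSIG1 fell. Srebf2 (chr15:82147181-82205379) read 76.2, 79.6, 78.5, 89.2 and 85.5 CPM on chow. It had a lowest of 31.4, a median of 95.5 and a highest of 117 CPM after 8 weeks, and 62.4, 86.8 and 99.2 CPM after 16. The differences from chow were 0.11 ± 0.20 (edgeR adjusted p = 0.656) and 0.07 ± 0.20 (adjusted p = 0.799), and its highest and lowest log2 differences over 31 alternatives were 0.31 and 0.04 at 8 weeks and 0.60 and 0.02 at 16. None of those alternatives called it.

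Scap (chr9:110333288-110384950) stood at 239, 208, 193, 221 and 185 CPM on chow. After 8 weeks the lowest was 74.8, the median 121 and the highest 195 CPM, and after 16 weeks they were 79.9, 101 and 129 CPM. At 16 weeks no library reached the chow range. Scap fell by 0.63 (SE 0.17, edgeR adjusted p = 0.00489) after 8 weeks and by 1.02 (SE 0.17, adjusted p = 4.18e-05) after 16. Both calls were lost with scaling by total counts alone (edgeR adjusted p = 0.0862 and 0.0622). Scap overlaps the annotated locus 5830462I19Rik on the other strand over 13.2% of its exonic bases.

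Insig1 (chr5:28071363-28078662), itself a target of SREBP-2, read 275, 297, 236, 267 and 232 CPM on chow. It had a lowest of 82.6, a median of 180 and a highest of 255 CPM after 8 weeks, and 69.3, 120 and 152 CPM after 16. The log2 differences were -0.59 ± 0.21 (edgeR adjusted p = 0.0251) and -1.21 ± 0.21 (adjusted p = 5.36e-05), and the step from 8 to 16 weeks was called at -0.62 ± 0.19 (adjusted p = 0.0239). The 8-week call was lost in 5 of 31 alternatives, namely total counts alone, no filter, leaving out 8-week replicates 3, 4 and 5, and leaving out chow replicate 1 or chow replicate 2, with adjusted p up to 0.213. The call between the times was lost in 5 of 32, leaving out 16-week replicate 8 among them. The looser element near its start is printed above. Insig2 (chr1:121304353-121332589), which shares the retention role of Insig1, read 448, 564, 457, 499 and 442 CPM on chow. All CDA-HFD libraries lay below these, with a lowest of 27.3, a median of 365 and a highest of 391 CPM after 8 weeks, and 294, 340 and 425 CPM after 16. Insig2 was nevertheless not called with all libraries (-0.60 ± 0.33, edgeR adjusted p = 0.139, and -0.47 ± 0.33, adjusted p = 0.258). Without 8-week replicate 3, which held the value of 27.3 CPM, it was called lower at both times, at -0.43 ± 0.10 (adjusted p = 0.0015) and -0.47 ± 0.10 (adjusted p = 0.000362).

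The esterifying enzymes rose at both times. Soat1 (chr1:156424525-156474331), the form found in most tissues and abundant in macrophages, read 6.40, 6.31, 5.19, 6.34 and 7.12 CPM on chow. After 8 weeks it had a lowest of 23.5, a median of 39.9 and a highest of 47.8 CPM, and after 16 weeks 39.5, 50.5 and 73.7 CPM. No library of either group came near the chow range. The rises were 6.06-fold (log2 2.60 ± 0.20, edgeR adjusted p = 4.71e-09) and 8.19-fold (log2 3.03 ± 0.20, adjusted p = 5.35e-10), and both were called in 31 of 31 alternatives. The step from 8 to 16 weeks, 0.43 ± 0.15 (adjusted p = 0.0462), was the only called rise of a member between the times and was lost in 19 of 32 alternatives.

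Soat2 (chr15:102150526-102163469), the form of hepatocytes and intestine, stood at 28.7, 37.0, 34.8, 34.4 and 27.7 CPM on chow. It had a lowest of 44.8, a median of 54.4 and a highest of 147 CPM after 8 weeks, and 40.8, 50.9 and 58.8 CPM after 16, all above the chow libraries. The log2 differences were 1.04 ± 0.23 (edgeR adjusted p = 0.000864) and 0.62 ± 0.22 (adjusted p = 0.0257). With 8-week replicate 3 removed they were 0.76 ± 0.12 and 0.61 ± 0.12, and the call at 16 weeks was lost in 3 of 31 alternatives. Stard4, a carrier of sterols between membranes (chr18:33199355-33213862), read 165, 185, 141, 180 and 118 CPM on chow. Its lowest, median and highest values were 12.0, 89.3 and 123 CPM after 8 weeks and 46.5, 73.2 and 84.5 CPM after 16. It fell by 0.93 (SE 0.31, adjusted p = 0.0167) and by 1.21 (SE 0.31, adjusted p = 0.0024). With scaling by total counts alone, both Stard4 calls were lost (edgeR adjusted p = 0.107 and 0.114).

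Of 8 macrophage markers, among them Cd68 and Trem2, 8 were called higher after 8 weeks and 7 after 16, where 30.8% and 29.4% of all genes were. The exception at 16 weeks was Clec4f, a Kupffer cell marker, which stood at 136 ± 15.5 CPM on chow (SD, n = 5), 281 ± 136 after 8 weeks and 90.7 ± 32.6 after 16 (SD, n = 8), and 1 marker was called lower at 16 weeks without 8-week replicate 3. Their sum ran from 421 to 564 CPM on chow, from 1738 to 7322 CPM after 8 weeks and from 2844 to 4799 CPM after 16, and none was at 0 in a group. The hepatocyte sum ran from 102700 to 152900, from 102600 to 385000 and from 79410 to 111600 CPM, with 2 of its 7 markers called higher and 2 lower after 8 weeks, 4 lower after 16, and 4 lower between the times. The shares of all genes called lower were 20.5%, 22.5% and 11.0%. The part of cell composition in the sterol differences was not tested, and in whole liver fewer cells of a type and less RNA per cell cannot be told apart.

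**Figure D4:**
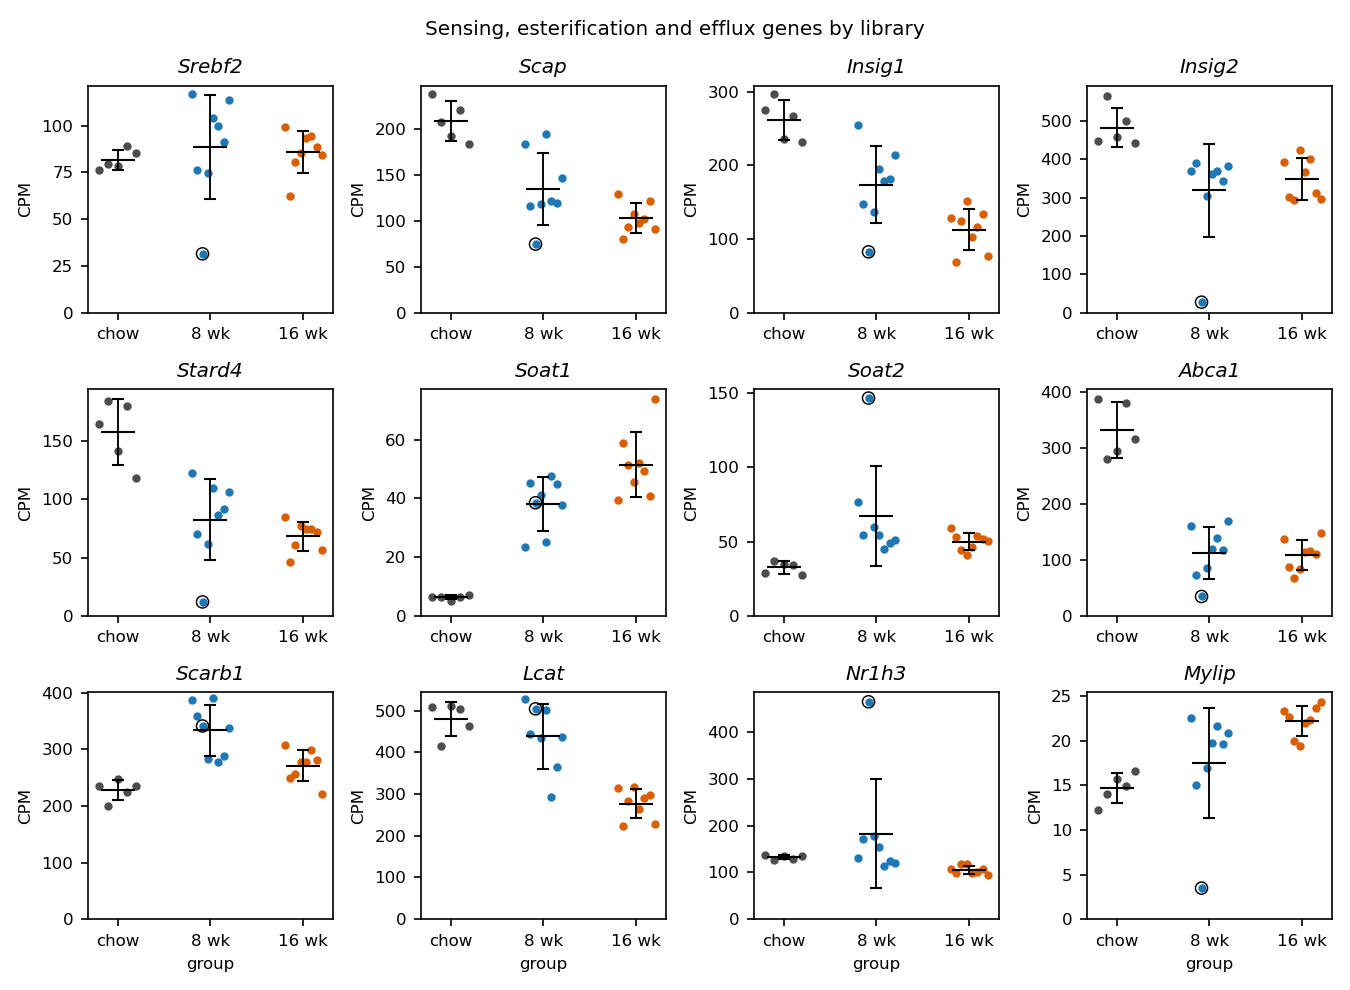
CPM of 12 genes of sensing, esterification, efflux and LXR signalling in each library, with group mean ± SD; circled points are 8-week replicate 3. Soat1 lies at 5.19 to 7.12 CPM on chow and at 23.5 CPM or more in every CDA-HFD library, while Abca1 lies at 280 CPM or more on chow and at 170 CPM or less on CDA-HFD.

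Abca1 fell at both times, while Scarb1 rose after 8 weeks and Lcat fell after 16. Abca1 (chr4:53030787-53159895), the pump that loads cholesterol onto apolipoprotein A-I, read 387, 280, 294, 381 and 317 CPM on chow. It had a lowest of 34.6, a median of 118 and a highest of 170 CPM after 8 weeks, and 68.5, 113 and 148 CPM after 16. The groups did not overlap. The falls were 2.95-fold (log2 -1.56 ± 0.26, edgeR adjusted p = 7e-05) and 3.06-fold (log2 -1.61 ± 0.26, adjusted p = 3e-05), each called in 31 of 31 alternatives. Between the times the difference was -0.05 ± 0.24 (adjusted p = 0.898).

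Scarb1, the receptor that takes up cholesteryl esters from high-density lipoprotein, rose by 0.55 ± 0.11 after 8 weeks (edgeR adjusted p = 0.000461), with 8 of 8 libraries above chow. At 16 weeks it was at 0.25 ± 0.11 (adjusted p = 0.065), called without 8-week replicate 3 (adjusted p = 0.0371). The fall between the times, -0.30 ± 0.10 (adjusted p = 0.033), turned to 0.11 with scaling by total counts alone. Lcat, the plasma enzyme that esterifies cholesterol on lipoproteins, was not called after 8 weeks and fell by 0.80 (SE 0.13, adjusted p = 2.96e-05) after 16, below chow in 8 of 8 libraries. Its call was lost with scaling by total counts alone (edgeR adjusted p = 0.0796).

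Nr1h3, which encodes LXRα, was not called against chow with all libraries, at 0.46 ± 0.26 and -0.34 ± 0.25 (edgeR adjusted p = 0.141 and 0.281). Without 8-week replicate 3, which read 466 CPM where the other 7 read 113 to 178, the differences were 0.09 ± 0.11 (adjusted p = 0.512) and -0.34 ± 0.10 (adjusted p = 0.0066). Between the times Nr1h3 was called lower at -0.79 ± 0.22 (adjusted p = 0.0178), and at -0.43 ± 0.09 (adjusted p = 0.0027) without that library. Mylip, an LXR target whose product marks lipoprotein receptors for degradation (chr13:45389742-45412022), read 12.2, 14.0, 15.8, 14.9 and 16.6 CPM on chow. It had a lowest of 3.48, a median of 19.7 and a highest of 22.6 CPM after 8 weeks, and 19.5, 22.5 and 24.4 CPM after 16, where 8 of 8 libraries lay above chow. With all libraries it was not called (0.25 ± 0.25, adjusted p = 0.406, and 0.60 ± 0.26, adjusted p = 0.0561). It was higher at both times once 8-week replicate 3 was left out, at 0.39 ± 0.10 (adjusted p = 0.00167) and 0.59 ± 0.09 (adjusted p = 1.53e-05).

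Among 20 other genes of sterol handling, 6 were called higher and 7 lower after 8 weeks, 4 and 5 after 16 weeks, and 0 and 1 between the times. The shares of all genes were 30.8% and 20.5%, 29.4% and 22.5%, and 10.6% and 11.0%. For the 0, 1 gene had an unadjusted p under 0.05 and DESeq2 called 1. The rises with the largest difference were those of Abcg1, a sterol exporter abundant in macrophages, at 1.95 ± 0.14 and 2.18 ± 0.14, Pltp, the phospholipid transfer protein, at 1.68 ± 0.43 and 1.02 ± 0.42, and Npc2, a lysosomal sterol carrier, at 1.61 ± 0.32 and 1.48 ± 0.32. Pltp read 612 CPM in 8-week replicate 3, and without that library its 8-week difference was 0.97 ± 0.19. The falls with the largest difference were those of Abcg5 at -1.16 ± 0.28 and -1.52 ± 0.28, Abcg8 at -1.03 ± 0.27 and -1.46 ± 0.27, whose products together export sterols into bile, and Abca2 at -1.14 ± 0.16 and -1.20 ± 0.16. The exporters Abca1 and Abcg1, both known LXR targets, thus differed from chow in opposite directions in the same livers.

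Per kilobase of the principal transcript, the levels in chow livers differed widely among members. Lcat was highest at 358 ± 30.6 CPM per kb (SD, n = 5), then Insig2 at 179 ± 18.9 and Ebp at 176 ± 16.1, which did not differ beyond their spread, then Sc5d at 139 ± 20.1 and Hmgcs1 at 115 ± 29.0. Soat1 was lowest at 0.749 ± 0.082, next to Idi1 at 0.848 ± 0.126 and Fdps at 1.61 ± 0.32. After 8 weeks Hmgcs1 stood second at 199.7 ± 64.8 CPM per kb and Ebp followed at 196 ± 123 (SD, n = 8), again within their spread. That near tie included 8-week replicate 3, which read 236 CPM of Hmgcs1 and 849 CPM of Ebp. The other 7 libraries read 757 ± 138 CPM of Hmgcs1 and 269 ± 68.7 CPM of Ebp (SD, not per kb). After 16 weeks Lcat was highest at 206 ± 26.5 and Hmgcs1 second at 132 ± 50.2, while Soat1 stood at 6.14 ± 1.32.

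The comparisons with chow share their 5 chow libraries, so the likeness of the 2 columns of differences is not an independent result. With scaling by total counts alone, 78.3%, 89.5% and 94.8% of all called genes were higher at 8 weeks, at 16 weeks and between the times, against 60.1%, 56.6% and 49.0% with TMM. The medians of all genes then lay at 0.28, 0.56 and 0.38. Relative to them the members' medians were -0.01, -0.42 and -0.61, where TMM gave 0.00, -0.40 and -0.59.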

How the data were processed

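Total RNA of whole livers was made into stranded libraries, per the labels' protocols. The authors deposited whole-number read counts per gene for each library and in 1 table, and 21 of 21 library files held the same counts as the table's columns. The submitters' processing notes name the build GRCm38. The aligner, the counter, the annotation release and the strand setting are in each case not given in the sources used here. Gene IDs were matched to GENCODE M21 symbols, which 52489 of 52636 had, and 0 replicate pairs were identical.

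Low counts were filtered with edgeR's default rule, which left 17104 genes. Counts were scaled by TMM and tested with edgeR 4.0.16 (R 4.3.3) by its quasi-likelihood test in 1 fit of the 3 groups, with Benjamini-Hochberg adjustment over all genes tested and calls at an adjusted p under 0.05. The SE of a log2 difference was taken from the test's F statistic. On simulated counts, 14.9%, 5.97% and 19.4% of genes changed 1.5-fold were called at 8 weeks, at 16 weeks and between the times. Of those changed 2-fold, 62.7%, 55.2% and 70.1% were called, and of those changed 4-fold, 90.9%, 90.9% and 95.5%. The simulation changed only 67, 67 and 66 genes at these folds and left 16904 unchanged. In the data, 30.8% of genes were called higher and 20.5% lower at 8 weeks. The adjusted p depends on this share, so these rates do not measure the power of the tests above. Fdps and Idi1 had few counts, and the part of depth in the precision of such genes was not tested.

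The members and lists were chosen with earlier results of these data known. Values are given for each chow library, and as lowest, median and highest for the larger groups, for the called members that rose most (up to 4) and fell most (up to 4) against chow, for up to 3 in each direction between the times, and for Srebf2, Scap, Insig1, Insig2, Soat1, Soat2, Abca1 and Mylip. Of the other sterol genes at most 3 per direction are named. The values of 1 of them are not reported here. Alternatives were DESeq2 size factors, the DESeq2 1.42.0 Wald test, total counts alone, other filters, the 20 most abundant genes left out, only the 2 groups compared, and libraries left out. For a single member, an alternative was counted as changed where a call was lost or gained or a called gene changed sign. Counts of called genes under the alternatives are listed below only where they differed from the main count by more than a set factor. Counts that are not listed can thus also have moved. Figures were drawn with matplotlib 3.10.9 in Python 3.11.15.

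Besides the hepatocyte and macrophage lists, marker genes called higher at 8 and 16 weeks numbered 5 and 5 of 6 for stellate cells, 5 and 4 of 5 measured for lymphocytes and neutrophils, 3 and 4 of 4 for cholangiocytes, 8 and 7 of 8 measured for squamous epithelium and 2 and 2 of 5 for fat. Exocrine pancreas markers were higher at 8 weeks in 7 of 7, with a sum of 8061 CPM in 8-week replicate 4. Of 10 muscle markers, 1 was higher at 16 weeks. Of 5 endothelial markers, 1 was lower at each time. Among all genes, 30.8% and 29.4% were called higher at 8 and 16 weeks, and 20.5% and 22.5% lower.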

Additional observations from a re-analysis of the deposited data

Results flagged for a closer look

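For each of the 30 genes in each of the 3 groups, the gap of the highest and lowest library to its neighbour was set against the group's range by Dixon's criterion, which chance passes in about 1 of 20 groups. Of 90 such tests 17 passed, at 16 genes, and 16 of the 17 were 8-week replicate 3. That library was far above the rest of its group at Acat2 (154 CPM), Mvk (274), Mvd (163), Fdps (42.8), Ebp (849), Soat2 (147) and Nr1h3 (466). It was far below the rest at Hmgcs1 (236 CPM), Idi1 (0.834), Sqle (58.1), Nsdhl (44.8), Sc5d (150), Srebf2 (31.4), Insig2 (27.3), Stard4 (12.0) and Mylip (3.48). The same library held the most squamous and muscle transcripts, and their part in these values was not tested. How often it passes among all genes was not determined. The remaining case was 16-week replicate 2, far below its group at Srebf2 with 62.4 CPM.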

How the results depend on the processing

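With all libraries the members called higher and lower numbered 7 and 5 at 8 weeks, 2 and 13 at 16 weeks and 1 and 15 between the times, the other sterol genes 6 and 7, 4 and 5, and 0 and 1, and all genes 5269 and 3503, 5026 and 3847, and 1814 and 1889. Of 2820 values of single members under alternatives, 2592 kept their call, 81 gained and 146 lost one, and 1 reversed, while 53 that were called in neither fit changed sign and are counted as kept. Where not stated otherwise, the cause of a change was not tested.

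Total counts alone gave 1 member, 3 other sterol genes and 1669 genes lower at 8 weeks. At 16 weeks it gave 5 members, 8 other sterol genes and 8449 genes higher, and 4, 3 and 986 lower. Between the times it gave 6 other sterol genes and 4450 genes higher, and 4 members, 0 other sterol genes and 245 genes lower, and Scarb1 reversed to 0.11 (edgeR adjusted p = 0.49). The fit of only the groups compared, with fewer samples, gave 3356 genes higher at 8 weeks, 4 members higher with 10 other sterol genes and 5850 genes lower at 16 weeks, and 0 members higher with 0 other sterol genes and 781 genes lower between the times. Without a filter 3 members were lower at 8 weeks, and between the times 0 members were higher and 0 other sterol genes and 1082 genes lower. A mean of at least 1 CPM gave 4 members higher at 16 weeks and 1 other sterol gene higher between the times. DESeq2 size factors and the DESeq2 Wald test each gave 1 other sterol gene higher between the times, and the Wald test 9 lower at 16 weeks.

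Without 8-week replicates 3, 4 and 5 together, 4 members were higher and 9 other sterol genes lower at 16 weeks, and between the times 0 members were higher and 2 other sterol genes and 922 genes lower. Without the 5 libraries with most squamous transcripts, 8 other sterol genes were lower at 16 weeks, and between the times 3 other sterol genes and 2941 genes were higher, and 24 members and 3 other sterol genes lower. Leaving out 16-week replicates 2 and 8, a choice made after seeing the data, gave 2 other sterol genes higher at 16 weeks, and between the times 0 members and 941 genes higher and 4 members, 0 other sterol genes and 434 genes lower. With 8-week replicate 3 left out as well, also chosen after seeing the data, 0 members were higher and 1251 genes lower between the times. The share of called genes that were higher between the times, 49.0% with all libraries, was 62.0% without a filter, 64.9% with only the groups compared, 64.1% without 8-week replicates 3, 4 and 5, and 68.4% without 16-week replicates 2 and 8.

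Leaving out 1 library at a time, members lower at 8 weeks ranged from 3 (without chow replicate 1 or 2) to 8 (without 8-week replicate 3), and members higher at 16 weeks from 1 (without chow replicate 1 or 5) to 4 (without 8-week replicate 3). Other sterol genes lower at 16 weeks ranged from 4 to 9, the latter without 8-week replicate 3. Between the times, members higher ranged from 0 to 1, other sterol genes higher from 0 to 1, members lower from 10 to 23, other sterol genes lower from 0 to 3, and all genes lower from 904 (without 16-week replicate 8) to 2835 (without 8-week replicate 6), with 1220, 1004 and 1137 without 16-week replicates 2, 5 and 6. No paired analysis was possible because the labels give each library a number of its own and share none of these numbers between groups.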
